A study of Mus musculus with 6 samples.

Results

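Solute carriers are the membrane proteins encoded by the Slc genes, and 7 of the 637 genes in the authors' deposited table belong to them. They were taken as every row whose gene symbol starts with Slc followed by a digit, and were grouped by the substrate in the gene description: a monocarboxylate carrier (Slc16a1), a zinc transporter (Slc30a1), a pair described as mitochondrial phosphate carriers (Slc25a3 and Slc25a25), a mitochondrial palmitoylcarnitine carrier (Slc25a29), a cationic amino acid transporter (Slc7a14) and a fatty acid transporter (Slc27a3). RNA was sequenced from the hippocampus of wild type C57BL/6 mice aged 56 days, 3 samples after focal middle cerebral artery occlusion and 3 after a sham operation, all titled 2 h. Occlusion of this artery is a model of stroke, with the sham operation as control for the surgery. What the 2 h refer to, the occlusion itself or the time since surgery, is unsaid in the titles. Separate animals are not named in the labels, so the p-values in the table reflect differences between samples that could be technical. For each group the table gives a single value per gene, taken to be a mean of normalised reads. Its headings end in M2 and S2, and these were matched to ischemia and sham by the first letters of the treatments. Every direction below rests on that reading.

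Neurons and glia depend on solute carriers for fuel, ions and the building blocks of metabolism. Proton-linked monocarboxylate transporters move lactate, pyruvate and ketone bodies between blood, glia and neurons, and carriers of the mitochondrial inner membrane exchange phosphate, adenine nucleotides and amino acids with the matrix. Zinc is stored in the vesicles of many hippocampal glutamatergic terminals, and its cytosolic level is held down by transporters that export it or sequester it.

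Of the 7 Slc genes, 4 were higher and 3 lower in ischemia. The monocarboxylate transporter Slc16a1 (2.84-fold), the mitochondrial carrier Slc25a25 (2.67-fold), the zinc exporter Slc30a1 (2.08-fold) and the phosphate carrier Slc25a3 (1.44-fold) rose in the authors' deposited table. The fatty acid transporter Slc27a3 (2.36-fold), the mitochondrial carrier Slc25a29 (1.50-fold) and the amino acid transporter Slc7a14 (1.36-fold) fell in the authors' deposited table. The table lists only genes that passed the authors' adjusted p-value of 0.05, so each Slc gene in it had to pass, and the number that did is no result. Called genes made up 2.25% of the 28319 genes tested, a total worked out from the adjusted p-values; 1.47% were called higher and 0.784% lower. Among protein-coding symbols of the GENCODE M21 mouse annotation, 7 of 371 Slc genes are in the table (1.89%), beside 547 of all 21924 (2.49%). The share of higher genes was 57.1% for the Slc genes and 65.1% for the whole table. The median log2 fold change was 0.53 for the Slc genes and 0.66 for the whole table.

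The bases before the transcription starts of the risen genes are shown here. Those of the lower genes were searched in the same way and are not printed. Each line gives the 250 bases before a RefSeq start on GRCm38.p6, 5′ to 3′ on the gene's strand. Capitals mark matches, on either strand, to the cyclic AMP response element (TGACGTCA) or its shorter core (TGACG), the E-box CACGTG or the core of the hypoxia response element within it (ACGTG), or a metal response element (TGCACNC or TGCGCNC).
Slc16a1, chr3:104638414-104638663, plus strand: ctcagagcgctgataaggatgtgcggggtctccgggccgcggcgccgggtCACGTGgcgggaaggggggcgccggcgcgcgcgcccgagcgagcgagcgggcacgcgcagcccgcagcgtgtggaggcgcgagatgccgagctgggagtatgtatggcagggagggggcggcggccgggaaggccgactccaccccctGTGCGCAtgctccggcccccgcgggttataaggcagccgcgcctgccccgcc
Slc30a1, chr1:191906531-191906780, plus strand: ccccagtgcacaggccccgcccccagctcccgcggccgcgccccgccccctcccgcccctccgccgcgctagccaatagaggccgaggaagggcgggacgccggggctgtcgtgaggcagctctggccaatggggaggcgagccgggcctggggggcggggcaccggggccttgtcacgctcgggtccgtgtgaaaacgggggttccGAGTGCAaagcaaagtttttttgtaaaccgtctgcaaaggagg
Slc25a25 start 1, chr2:32451471-32451720, minus strand: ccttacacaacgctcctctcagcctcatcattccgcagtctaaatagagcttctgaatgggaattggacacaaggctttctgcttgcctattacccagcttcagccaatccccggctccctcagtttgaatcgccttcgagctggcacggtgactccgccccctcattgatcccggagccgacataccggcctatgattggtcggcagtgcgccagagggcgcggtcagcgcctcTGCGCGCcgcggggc
Slc25a25 start 2, chr2:32431152-32431401, minus strand: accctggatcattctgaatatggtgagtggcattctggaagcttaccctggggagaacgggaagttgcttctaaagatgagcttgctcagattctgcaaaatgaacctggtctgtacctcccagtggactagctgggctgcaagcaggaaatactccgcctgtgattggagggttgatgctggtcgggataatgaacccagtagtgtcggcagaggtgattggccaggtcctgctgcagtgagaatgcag
Slc25a25 start 3, chr2:32424067-32424316, minus strand: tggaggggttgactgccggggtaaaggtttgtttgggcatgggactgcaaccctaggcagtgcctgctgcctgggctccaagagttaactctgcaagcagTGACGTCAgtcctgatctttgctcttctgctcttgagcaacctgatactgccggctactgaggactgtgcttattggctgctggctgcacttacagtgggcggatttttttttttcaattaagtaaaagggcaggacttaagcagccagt
Slc25a3, chr10:91123968-91124217, minus strand: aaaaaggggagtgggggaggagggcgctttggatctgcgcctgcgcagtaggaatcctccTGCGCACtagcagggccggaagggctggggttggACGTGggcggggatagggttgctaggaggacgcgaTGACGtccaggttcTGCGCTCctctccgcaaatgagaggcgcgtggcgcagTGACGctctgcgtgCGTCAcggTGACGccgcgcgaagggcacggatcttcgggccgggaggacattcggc

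All 7 Slc genes had a window in the RefSeq promoter table, 9 windows in all, because Slc25a25 has 3 starts there. The full cyclic AMP response element, the site bound by CREB, was found in 1 of the 9, before start 3 of Slc25a25, where it spans bases 150 to 143 before the start. The same 8 letters were present in 1.55% of 32851 windows of that length across the genome. The deposited value of Slc25a25 is 1 number for the gene, so it cannot be assigned to a start. Before Slc25a3 the shorter core occurred 4 times, and 17.8% of all windows hold it at least once. The share of windows that hold it 4 times was not counted. The E-box before Slc16a1 spans bases 200 to 195, and by its letters every such E-box holds the hypoxia core on both strands. The E-box was also found before Slc7a14, which fell, and in 6.02% of all windows. The hypoxia core was in 3 of the 9 windows, those of Slc16a1, Slc25a3 and Slc7a14, and in 16.6% of all windows. The metal response element, which the zinc-sensing factor MTF-1 binds, matched once before Slc30a1, at bases 43 to 37. It was in 5 of the 9 windows, those of Slc16a1, Slc25a25, Slc25a3 and Slc25a29 included, and in 21.4% of all windows. The 9 windows had 51.6% to 76.4% G and C, beside a median of 52.4% over all windows. The shares over all windows were not matched for this content. The AP-1 site TGANTCA (6.75% of all windows), the EGR site GCGNGGGCG (4.70%) and the CArG box of serum response factor (1.47%) matched in 0 of the 9. The CCAAT box, read on either strand, was in 33.8% of all windows and before 4 of the 7 genes, in 6 of the 9 windows, of which 3 belong to Slc25a25. It is not capitalised in the sequences. The window before Slc27a3 held the CCAAT box and no other motif searched. A match is a run of letters and does not show that a factor was bound.

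**Figure D1:**
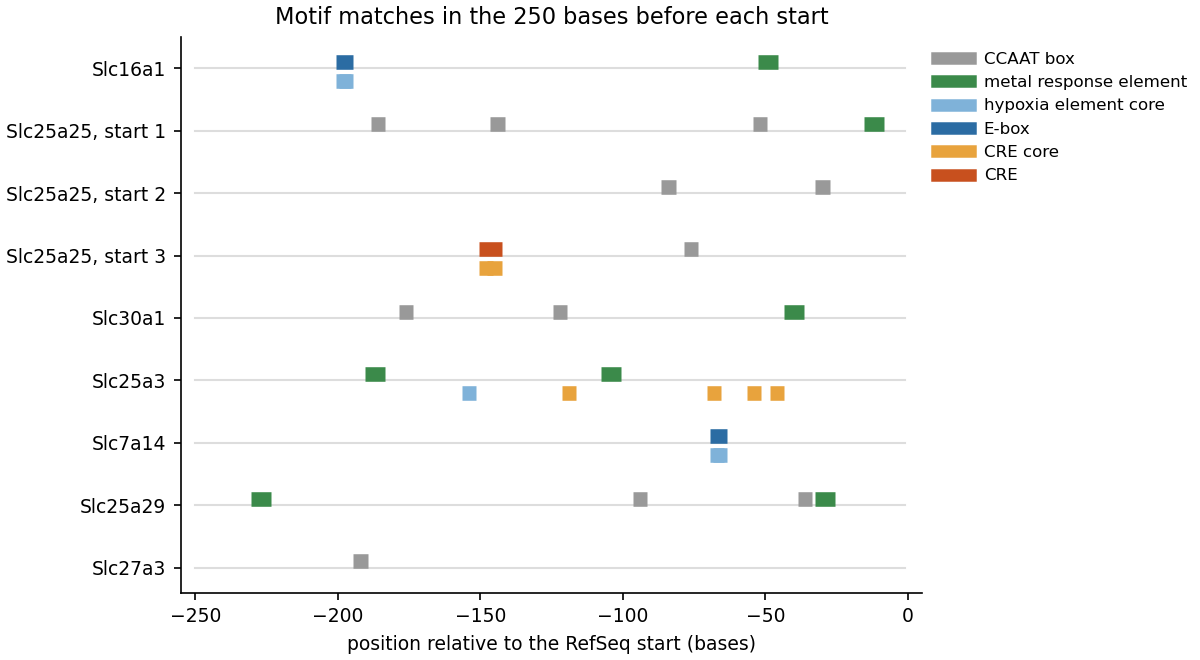
Position of motif matches (bars) in the 250 bases before each RefSeq start of the 7 Slc genes; the x axis is the distance to the start in bases, and Slc25a25 has 3 starts. The full cyclic AMP response element (CRE) is seen before start 3 of Slc25a25, and its shorter cores before Slc25a3.

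Slc16a1 encodes monocarboxylate transporter 1, which carries lactate and pyruvate with a proton and is found in endothelium and glia. Its mean was 1586 normalised reads in sham and 4498 in ischemia in the authors' deposited table. This is a log2 fold change of 1.50 (p = 2.34e-05, adjusted p = 0.00256 in the authors' deposited table), the largest of the 7 and the 151st of the 415 rises in the table. Since the values are group means, an approximate standard error was taken from each p-value as the size of the log2 fold change divided by the normal deviate of that p. For Slc16a1 it was 0.36, ranking 419 from the smallest among the 473 genes with both means of at least 246 reads. Among those genes the median implied error was 0.17. The implied errors were set beside the spread of libraries in 66 genes whose reads could be separated. Both means of these genes lay between 50 and 450 normalised reads, below those of Slc16a1. The median ratio of implied to observed error was 1.20 (5th to 95th percentile 0.74 to 3.15). At the level of Slc16a1 this ratio was not checked.

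Slc30a1, the transporter that exports zinc from the cytosol across the plasma membrane, had nearly the same sham mean as Slc16a1. It went from 1601 to 3323 normalised reads, a log2 fold change of 1.05 (p = 1.03e-13, adjusted p = 7.09e-11 in the authors' deposited table). The rise was smaller than that of Slc16a1, yet its p-value was the smallest of the Slc genes and the 41st smallest in the table. The implied standard error was 0.14, against 0.36 for Slc16a1. Of the 3 rises above 2-fold, that of the zinc exporter had the smallest implied error. It ranked 67 from the smallest among the same 473 genes. Here too the ratio of implied to observed error was not checked at the level of the gene. Of 144 risen genes with a sham mean within 2-fold of its own, Slc30a1 ranked 56th by fold and 14th by p-value, while Slc16a1 ranked 36th by fold and 78th by p-value in its own window of 144. Exons of Slc30a1 share 468 bases (8.92% of its exon length) with an antisense gene on the other strand in GENCODE M21. No source used here says whether strand was used in counting, so reads of the antisense gene cannot be told apart from its own.

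Slc25a25 encodes a carrier that exchanges ATP-magnesium for phosphate across the mitochondrial inner membrane and is regulated by calcium. Its means in the authors' deposited table were 2662 normalised reads in sham and 7103 in ischemia. That is a log2 fold change of 1.42, with an implied standard error of 0.24 (p = 6.12e-09, adjusted p = 1.90e-06 in the authors' deposited table). Slc25a25 and Slc16a1 thus had log2 fold changes 1.42 and 1.50, a gap below either implied error. In its window of 118 risen genes of similar sham level, Slc25a25 was 26th by fold and 20th by p-value. Its exons share 379 bases (4.82%) with Naif1, a gene on the opposite strand that is not in the table.

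Slc25a3 is the phosphate carrier that supplies the mitochondrial ATP synthase, and it was the most abundant of the 7. It had 16715 normalised reads in sham and 24153 in ischemia in the authors' deposited table. Its log2 fold change of 0.53 (implied standard error 0.13) was the smallest rise of the 4, ranking 378th of 415 (adjusted p = 0.00576 in the authors' deposited table). In normalised reads the rise was nonetheless the largest of the Slc genes, at 7437 against 4441 for Slc25a25 and 2912 for Slc16a1. Among 23 risen genes of similar level it was 16th by fold.

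**Figure D2:**
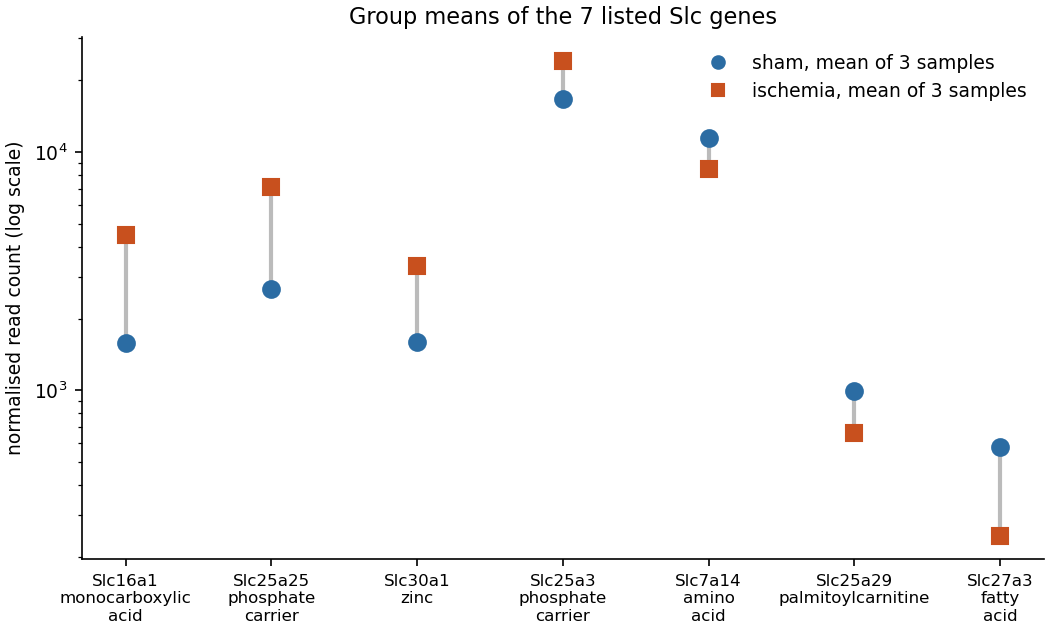
Mean normalised read count (log scale) of each Slc gene in sham (circles) and ischemia (squares), 3 samples a group, with the substrate from the gene description under each name, as means without error bars. The 4 genes on the left are higher in ischemia, from Slc16a1 (1586 to 4498) to Slc25a3 (16715 to 24153), and the 3 on the right are lower.

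**Figure D3:**
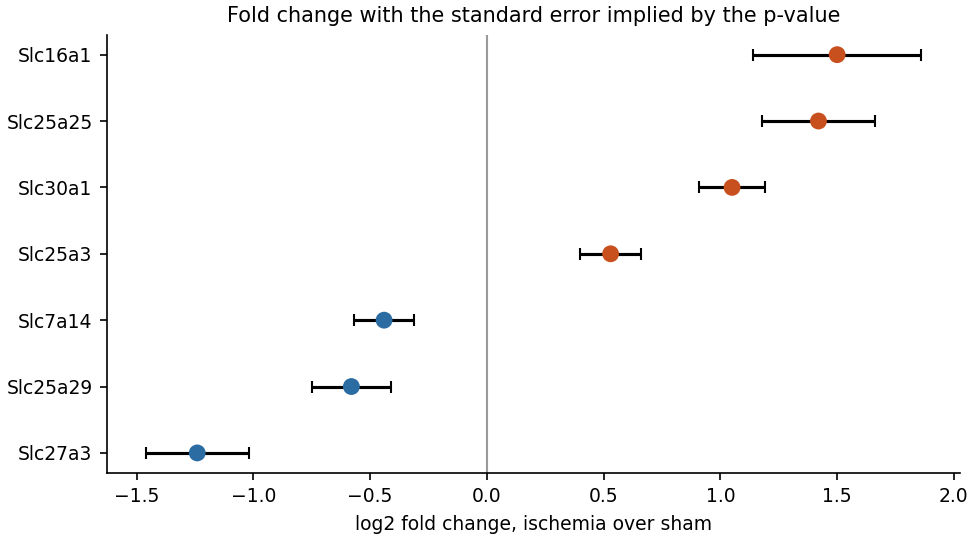
Log2 fold change of ischemia over sham for each Slc gene (points), with bars of 1 approximate standard error implied by the authors' p-value. The bar of Slc16a1 (0.36) is the widest and those of Slc25a3 and Slc7a14 (0.13 each) are the narrowest.

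Slc27a3 belongs to the fatty acid transport protein family, whose members activate long-chain fatty acids to their coenzyme A esters. It had the largest fall of the 3, from 580 normalised reads in sham to 246 in ischemia in the authors' deposited table. On the log2 scale its fold change was -1.24 (implied standard error 0.22, p = 1.05e-08, adjusted p = 3.08e-06 in the authors' deposited table), the 26th of 222 falls. Among the 78 lower genes with a sham mean within 2-fold of its own, it ranked 4th by fold and 3rd by p-value, and the median log2 fold change there was -0.69.

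Slc27a3 is also the gene for which single libraries can be seen best. Each group mean adds up whole reads from 3 libraries, scaled by size factors, and a low mean can be split back into those reads; the libraries are lettered in order of size factor and cannot be tied to the replicate numbers. In ischemia the mean of Slc27a3 had 1 solution, 422, 167 and 166 reads in libraries A, B and C, or 350, 190 and 198 normalised reads (SD 90.1, n = 3). Ischemia library A was thus the highest of its group. In sham it had 2 solutions. The more even one is 703, 683 and 470 reads, or 586, 617 and 538 normalised reads (SD 40.0, n = 3). The other is 181, 439 and 1043 reads, or 151, 397 and 1193 normalised reads, with a coefficient of variation of 93.9%. The largest coefficient among 132 group means of 66 separated genes was 72.9%, and the median was 15.1%; these genes had all been called by the authors, which favours a low spread, so the uneven solution is not excluded. With the more even solution every ischemia library lay below every sham library, and with the other the groups overlap. Groups without overlap were seen in 66 of the 66 separated genes (100%). With the more even solution, leaving out 1 library at a time gave log2 fold changes between -1.58 (without ischemia library A) and -1.08 (without ischemia library B).

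Slc25a29 carries the label of a palmitoylcarnitine transporter in its gene description, and the protein is also known to carry basic amino acids into mitochondria. It fell from 995 to 664 normalised reads, a log2 fold change of -0.58 (implied standard error 0.17, adjusted p = 0.0268 in the authors' deposited table). Its reads could be split in 6 ways in sham and 3 ways in ischemia. In the most even of these the sham libraries had 1013, 870 and 1101 normalised reads (SD 117, n = 3) and the ischemia libraries 730, 559 and 702 (SD 91.7, n = 3). These groups do not overlap, which holds for 1 of the 18 combinations and for all of the 66 separated genes. The next most even splits had coefficients of variation of 45.1% in sham and 41.9% in ischemia. In the separated genes, whose means were at most 450, the 95th percentile was 43.4% and the largest 72.9%. The values per library of Slc25a29 are therefore not settled. With the most even split, leaving out 1 library at a time moved the log2 fold change between -0.67 and -0.47.

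Slc7a14 is a member of the cationic amino acid transporter family. It was next to Slc25a3 the most abundant Slc gene in the table, with 11481 normalised reads in sham and 8472 in ischemia in the authors' deposited table. Its log2 fold change of -0.44 (implied standard error 0.13, p = 7.62e-04) ranked 221st of the 222 falls, and its adjusted p of 0.0381 was the largest of the 7 in the authors' deposited table. The listed genes reach up to 0.0499. Reads of Slc7a14 and of the 4 risen genes were too many to be split, with 66 or more solutions in each group.

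**Figure D4:**
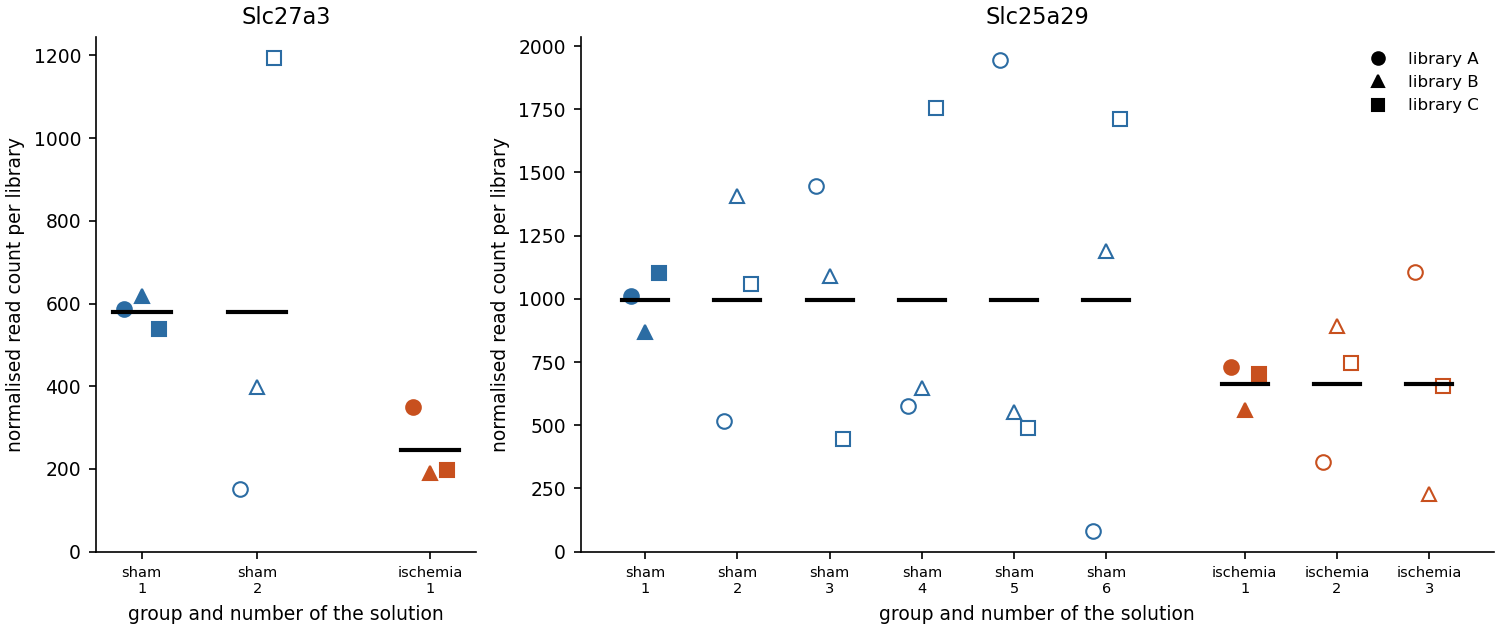
Normalised read count per library of Slc27a3 and Slc25a29 under every split of the group means into whole reads; symbols mark libraries A, B and C, black lines the group means, filled symbols the most even split and open symbols the others. For Slc27a3 the single ischemia solution (350, 190 and 198) lies below the even sham solution (586, 617 and 538) and overlaps the uneven one.

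**Figure D5:**
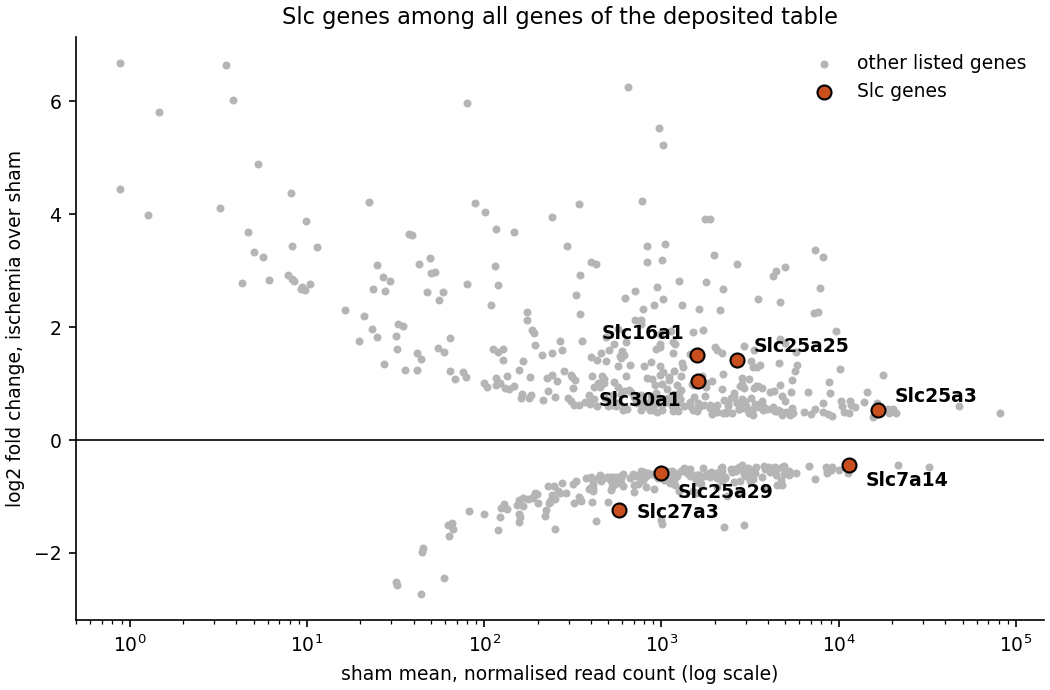
Log2 fold change of ischemia over sham against the sham mean (log scale) for the listed genes (grey) and the 7 Slc genes (orange); 2 genes listed at 0 in sham have no finite value and are left out. Slc7a14 sits at the edge next to 0 on the lower side, and Slc27a3 lies below most lower genes of its level.

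Levels were compared between genes after division by the joint length of all exons of a gene in GENCODE M21. Most gene identifiers in the deposited data carry a BALB/cJ prefix, and lengths from such an annotation were not at hand. In sham, Slc25a3 had 3012 normalised reads per kilobase and Slc7a14 had 1168. The other 5 lay between 226 (Slc27a3) and 382 (Slc25a29) per kilobase in sham. In ischemia Slc25a3 stood at 4352, Slc16a1 at 1016, Slc25a25 at 903, Slc7a14 at 862 and Slc27a3 at 95.9 normalised reads per kilobase. With these lengths, 4.43 kilobases for Slc16a1 and 9.83 for Slc7a14, Slc16a1 was below Slc7a14 per kilobase in sham and above it in ischemia. Other lengths could change that order. The errors of these levels are unknown, so the order of near neighbours was not tested.

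Each class of carrier was read against the 2.25% of all tested genes that were called, and at that share most members of any list are not in the table. Lists of 217 Slc genes by substrate held 6 of the 7, all but Slc27a3. Of 15 monocarboxylate transporters, Slc16a1 was listed as higher and 14 were not listed. The neuronal member of that family, Slc16a7, and the astrocytic one, Slc16a3, are among those not listed. Of 36 mitochondrial carriers, 2 were higher and 1 lower. Of 27 zinc, iron and copper transporters, Slc30a1 was higher and 26 were not listed, the vesicular zinc transporter Slc30a3 among them. Of 42 amino acid transporters, Slc7a14 was lower and 41 were not listed, which include the glial glutamate transporters Slc1a2 and Slc1a3. Lists of 48 ion transporters, 7 nucleoside transporters, 20 hexose transporters and 22 vesicular, amine and related carriers had 0 listed members. The organic anion transporters, whose symbols start with Slco, were also absent from the table. A gene that is not listed has no value here, and neither its level nor its change is known.

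Among 12 genes that act with the monocarboxylate transporters, the pyruvate dehydrogenase kinase Pdk4 was the 1 listed, at 441 normalised reads in sham and 885 in ischemia (log2 fold change 1.01, adjusted p = 0.00289 in the authors' deposited table). The transporter's chaperone Bsg and the lactate dehydrogenases Ldha and Ldhb were not listed. Among 12 genes of adenosine and nucleotide handling, the ectonucleotidase Entpd1 was listed, at 618 and 931 normalised reads (log2 fold change 0.59, adjusted p = 0.0199 in the authors' deposited table). Of 26 ATP-driven pumps, water channels and other transporters, the proton pump subunit gene Atp12a was listed. It was at 1.46 normalised reads in sham and 82.3 in ischemia in the authors' deposited table (log2 fold change 5.82). Its reads were 2, 3 and 0 in the sham libraries and 41, 106 and 77 in the ischemia libraries, so the groups do not overlap. The same held for 66 of 66 separated genes with both means of at least 50 (100%), a filter that Atp12a does not pass. No such share was worked out for genes as scarce in sham, so the lack of overlap is not read as a result about Atp12a. Its log2 fold change was 6.63 without sham library B and 5.23 without sham library C. Exons of Atp12a share 557 bases (13.9% of their length) with an antisense gene in GENCODE M21. How many of its reads fall there is unknown, so its value is uncertain.

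Some markers of cell types were in the table, where 1.47% of all tested genes were called higher and 0.784% lower. In bulk tissue fewer cells of a type and less RNA per cell cannot be told apart. Of 12 endothelial markers, 2 were lower, Sox18 (log2 fold change -1.11) and Ocln (-1.10), and 0 were higher in the authors' deposited table. Of 10 oligodendrocyte markers, 4 were higher, by 0.42 to 0.48 on the log2 scale in the authors' deposited table. Of 10 dentate granule cell markers, 2 were lower, Lct (-1.55) and Dsp (-1.50), in the authors' deposited table. Among 10 markers of blood leukocytes, S100a8 and S100a9 were higher. The lists of 10 astrocyte, 10 neuron, 10 microglia and 10 choroid plexus markers had 0 listed members. Since unlisted markers have no value, no summed level of a marker list could be formed, and the part of these cell types in the Slc results was not tested.

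Genes next to the Slc genes were read from the RefSeq gene order. Among the 5 genes on each side of the 7, 2 of 70 were in the table (2.86%, beside 1.59% of all 34631 RefSeq coding and long noncoding genes). Cldn11, a myelin tight junction gene, lies next to Slc7a14 and changed in the opposite direction (log2 fold change 0.43). Apaf1, an apoptosome component, is 2 genes from Slc25a3 and likewise changed in the opposite direction (log2 fold change -0.71 in the authors' deposited table).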

How the data were processed

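The table holds 637 genes called by the authors between 3 ischemia and 3 sham samples. Bowtie 0.12.2 and the build mm8 are named, without their roles, per the submitters' processing notes. No source used here states how reads were counted, normalised or tested. Gene identifiers carry a BALB/cJ prefix in 612 rows. The deposited read signal is a read count per group, per the file headers, read here as normalised and averaged by the authors before deposit. The headers state neither step, and both rest on how low values split into whole reads scaled by size factors. The deposited log2 fold change is the log2 ratio of the group means with no pseudocount, and the p-values and Benjamini-Hochberg adjusted p-values are the authors' own. With 0 columns holding single samples, limma could not be used. Depth is unknown beyond size factors.

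The number of genes tested was the one whose adjusted p-values matched the printed digits in 636 of 637 rows. Whole reads were found by lattice reduction of the 12 lowest means of each group (sympy 1.14.0), which left 1 set of steps per group, with size factors between 0.837 and 1.2. Of means up to 450, 141 of 172 in ischemia and 191 of 195 in sham had 1 solution. The steps were tested on simulated data: 713 of 713 means with 1 solution were split correctly in 4 simulated columns of 637 group means, and 20000 simulated tests were recovered as 20000. Lengths and overlaps are from GENCODE M21, and promoters from RefSeq GRCm38.p6. Python 3.11.15, numpy 2.4.6 and scipy 1.17.1 were used. Every Slc gene in the table is named; other genes are named from fixed lists of partners and markers. The members and lists were chosen with earlier results of these data known. The unlisted Slc genes named as examples were chosen after the table was seen. Alternatives were other thresholds, a pseudocount of 1, levels per kilobase and the omission of single libraries.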

Additional observations from a re-analysis of the deposited data

How the results depend on the processing

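A minimum of 1 for the size of the log2 fold change left 4 of the 7 Slc genes, 3 higher (Slc16a1, Slc25a25 and Slc30a1) and 1 lower (Slc27a3). An adjusted p-value of at most 0.01 left 5, all 4 higher genes and Slc27a3. A larger group mean of at least 50 reads kept all 7, and adding the Slco genes added 0. A pseudocount of 1 moved the log2 fold change by at most the second decimal in each of the 7. Division by exon length changed the rank of 4 of the 7 sham levels. Single libraries could be left out for Slc27a3 and Slc25a29 only, and this was done with the most even split alone, with the ranges given above. The other splits were not tried and are less even, so these ranges do not bound the change. No paired analysis was possible because the table holds group means and the libraries cannot be tied to replicate numbers. The fits that needed values per sample, with the replicate number as a block or without a filter, were not run. No test could be repeated, and the p-values are those of an unnamed test.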
